A study of Macaca mulatta with 8 samples.

Results

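Transcripts of ubiquitin ligases and deubiquitinases were examined in rhesus macaque (Macaca mulatta) oocytes arrested at metaphase II, where the mature egg rests until sperm enters. Members were the probe sets whose single gene symbol in the platform annotation starts with USP and a digit, UCHL, OTUD, OTUB, FBXO, FBXW, FBXL, CUL and a digit, SKP or TRIM, or is MYLIP. The rule found 304 probe sets of 149 genes, among 24956 probe sets that carry 1 symbol and 52766 probe sets in all. It reads symbols alone, so it also takes in the antisense RNA USP6NL-AS1 and the TRIM-like genes TRIML1 and TRIML2.

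The study compared oocytes that matured inside the animal (in vivo, 4 arrays) with oocytes that matured in culture (in vitro, 4 arrays), and its title names the effect of maturation in culture on gene expression as the question. Each array carried RNA of a pool of 4 oocytes, amplified in more than 1 round before hybridisation to a single-colour Affymetrix array. The labels give no animal, age, hormone treatment or culture medium for either group, so both groups are known here only by where the oocytes matured. Replicates are described as biological, but the animals behind a pool are not named, and p-values therefore measure the spread between these pools, which may be partly technical.

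Ubiquitin is attached to proteins by a chain of enzymes that ends with a ligase, which picks the target, and it is removed again by deubiquitinases. Cullins are scaffolds that join a RING protein to a substrate receptor. F-box proteins (FBXW, FBXL and FBXO) are receptors that reach the cullin CUL1 through the adaptor SKP1, while MYLIP and most TRIM proteins carry their own RING domain. In the oocyte, timed destruction of cyclins and securin drives exit from meiosis, and later the egg's own stored proteins are cleared as the embryo takes over.

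Values are MAS5 signals, a summary of hybridisation brightness on a linear scale. Brightness also depends on the probes, so levels are compared between arrays and never between genes. The 2% trimmed mean of every array was about 150. An array's background was set at the 95th percentile of signals from 59 control probe sets, and it lay between 15.7 and 27.0. Between 70.4% and 79.3% of member probe sets lay above it on an array, against 49.9% to 60.9% of all 52766 probe sets. Of those, 24956 carry 1 symbol, as every member does, so these shares cover unlike sets. All 12 oocyte marker genes on the array were tested and none passed the test described next. A drop in a pool's signal cannot be split into less RNA per oocyte and fewer contributing oocytes.

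A probe set was tested where its mean signal exceeded the median of all non-control probe sets, 25.98. This held for 224 member probe sets of 126 genes, 73.7% of members against 64.4% of all probe sets with 1 symbol. The filter used the mean of both groups, so a few members passed through 1 group: 202 were above the threshold in both groups, 15 in vivo alone and 7 in vitro alone. The 23 genes with no tested probe set were FBXL5, FBXL13, FBXL14, FBXO11, FBXO31, FBXO39, FBXO40, FBXO47, OTUD3, OTUD6B, OTUD7A, TRIM10, TRIM16, TRIM54, TRIM55, TRIM65, TRIML1, USP26, USP27X, USP29, USP49, USP51 and USP6NL-AS1. FBXL5, an iron-sensing receptor, and OTUD6B were not above background on any array. SKP1, USP7, USP9X and USP44 were not analysed here.

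Among the ligases and deubiquitinases, 1 probe set passed the comparison of the groups, a MYLIP probe set that was higher in the oocytes matured in culture. The remaining 223 tested probe sets did not pass a limma adjusted p of 0.05 (Benjamini-Hochberg over 26378 probe sets). Over all tested probe sets, 39 passed, which is 0.148%. At an unadjusted p under 0.05 the members counted 17, or 7.59%, with 8 higher and 9 lower in vitro. The same share over all tested probe sets was 10.3%, of which 4.66% were higher and 5.61% lower in vitro. In 15 member probe sets, or 6.70%, the groups did not overlap, meaning that every array of a group exceeded every array of the other, against 6.33% of all tested probe sets. Of these 15, 3 were above the filter in 1 group alone. Both shares of members lay near or under the background, so neither count sets these genes apart from other transcripts. Their median log2 fold change, in vitro minus in vivo, was 0.008, beside 0.004 for all tested probe sets, with 114 positive and 110 negative values.

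**Figure D1:**
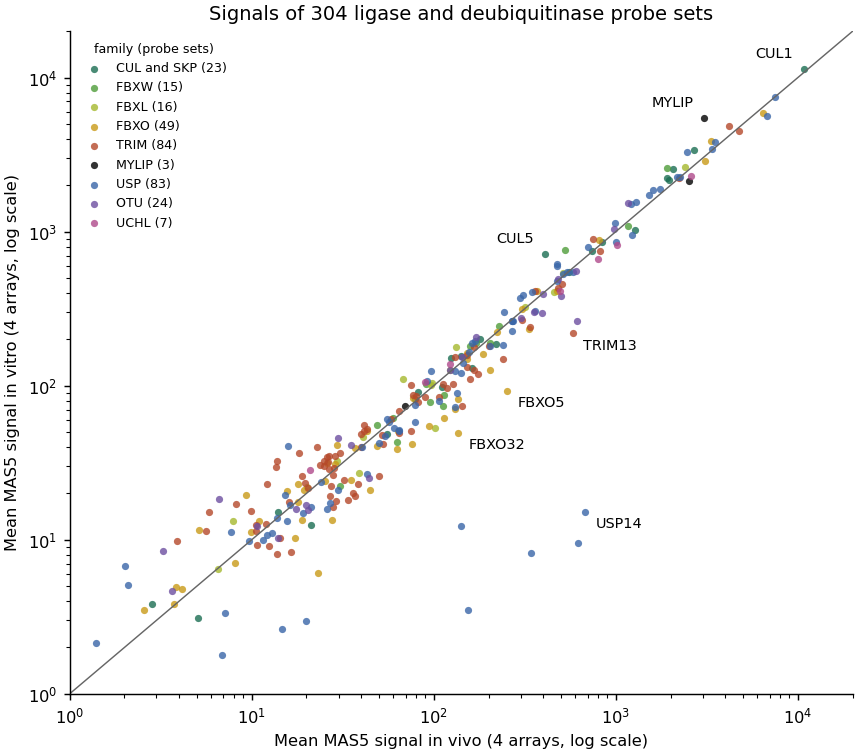
Mean MAS5 signal of each of the 304 member probe sets in vivo (horizontal, log scale) and in vitro (vertical, log scale), 4 arrays each, coloured by family; the line marks equal means. Most points above a signal of 100 lie close to the line, MYLIP and CUL5 lie above it, and the USP14 points lie far below it.

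MYLIP, also known as IDOL, is a RING ligase that marks the low-density lipoprotein receptor and its relatives for lysosomal degradation, and its gene is a target of the liver X receptors. Its probe set MmugDNA.3424.1.S1_s_at gave 3012.7, 2790.5, 3057.9 and 3354.4 in vivo and 5320.8, 5739.8, 5386.5 and 5378.5 in vitro. Every in vitro array lay above every in vivo array, and the arrays within a group stayed close together. MYLIP thus rose by 0.84 ± 0.14 (SE) on the log2 scale, a fold change of 1.79 (95% interval 0.53 to 1.14 on the log2 scale, limma adjusted p = 0.0313).

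The other MYLIP probe sets did not show this difference. The second bright one, MmugDNA.25703.1.S1_at, gave 1742.3, 2619.5, 2006.8 and 3753.5 in vivo and 2232.6, 2142.2, 2169.4 and 2005.2 in vitro. Its in vitro arrays lay inside the in vivo range, with a log2 fold change of -0.18 and a 95% interval from -0.64 to 0.28 (limma adjusted p = 0.815). The remaining, dim probe set had 69.8 ± 26.8 in vivo and 74.3 ± 12.3 in vitro (SD, n = 4), a log2 fold change of 0.14. Whether the probe sets differ from each other was not tested.

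The MYLIP call sat close to the threshold. It was lost without in vivo replicate 2 (limma adjusted p = 0.0997) and without any single in vitro array, at limma adjusted p-values of 0.145, 0.165, 0.128 and 0.114 without in vitro replicates 1, 2, 3 and 4. With the replicate number as a block the adjusted p was 0.112, while the difference itself stayed between 0.77 and 0.88 in every alternative. For 16 marker genes of the granulosa and cumulus cells around an oocyte, the brightest probe set of each was read. INHBA and STAR passed, with log2 fold changes of 3.08 (limma adjusted p = 0.00216) and 2.60 (limma adjusted p = 0.00783), both without overlap. The other 14 did not pass, among them HSD3B2 at 2.28 without overlap (limma adjusted p = 0.204). No gene passed as lower in vitro, and the median over the 16 was -0.01. The summed signal of that list ran from 25270 to 29290 in vivo and from 24230 to 32820 in vitro. SERPINE2 led that sum, with 13700 ± 2609 in vivo and 12490 ± 2368 in vitro (SD, n = 4), so the sum can hide rises of dimmer genes. None of the listed genes was below background on all arrays, and the part of these cells in the MYLIP difference was not tested.

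Genes around MYLIP did not pass. Of 10 genes on a list of its partner enzymes, lipoprotein receptors and liver X receptor genes, 9 were tested and none passed in either direction, with a median log2 fold change of 0.07. At an unadjusted p under 0.05, 4 of 19 probe sets were lower and none higher, beside 5.61% lower and 4.66% higher of all tested probe sets. UBE2D1, a ubiquitin-conjugating enzyme that works with MYLIP, had 201.6, 47.2, 190.2 and 87.4 in vivo and 31.1, 21.8, 44.5 and 52.8 in vitro. The groups overlapped at in vivo replicate 2, and the log2 fold change was -1.47 ± 0.41 (SE; limma adjusted p = 0.241). A dimmer UBE2D1 probe set had -1.13, also with overlap (limma adjusted p = 0.345), and both were among the 4 lower probe sets. VLDLR, a receptor that MYLIP acts on, had a log2 fold change of 0.09 with a 95% interval from -0.43 to 0.62. The liver X receptor genes NR1H3 and NR1H2 had -0.83 (limma adjusted p = 0.396) and 0.17 (limma adjusted p = 0.847).

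**Figure D2:**
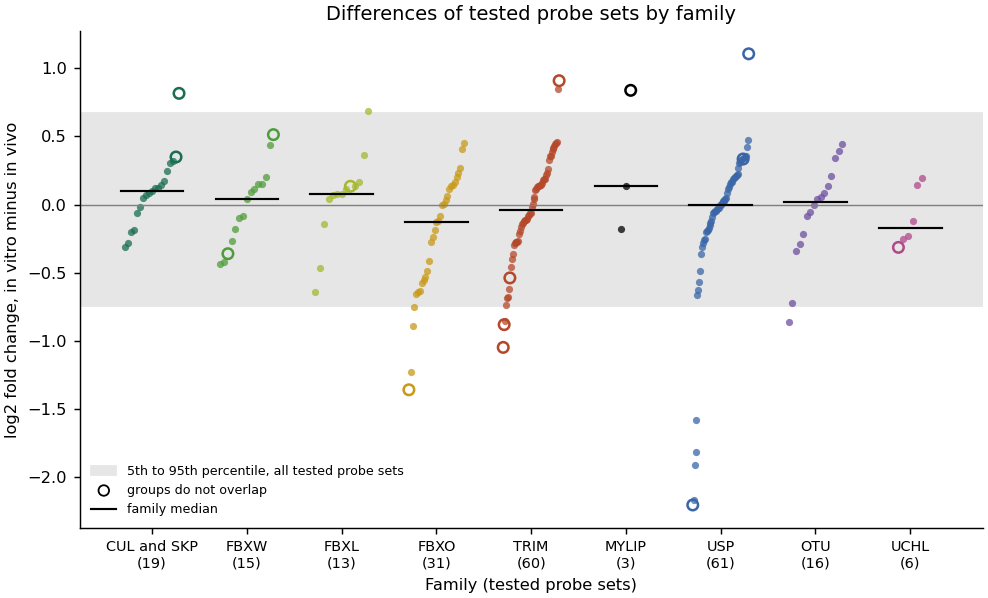
Log2 fold change (in vitro minus in vivo) of the 224 tested member probe sets by family, with the family median as a bar, open circles where the 4 arrays of a group do not overlap the other 4, and a grey band from the 5th to the 95th percentile of all tested probe sets (-0.74 to 0.67). The band holds 205 of the 224 points; the lowest points are those of USP14 and the highest is a USP24 probe set.

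Family medians were small. They were 0.10 for cullins and SKP2 (19 tested probe sets), 0.08 for FBXL (13), 0.04 for FBXW (15), -0.13 for FBXO (31) and -0.04 for TRIM (60). The deubiquitinase medians were -0.003 for USP (61), 0.02 for the OTU family (16) and -0.17 for UCHL (6). Centring each array on its median turned the FBXW and OTU medians to -0.01 and -0.03, and quantile normalization turned the USP median to 0.05. Between the 5th and the 95th percentile of all tested probe sets, -0.74 and 0.67, lay 205 member probe sets (91.5%).

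Cullin scaffolds were well above background on every array at most of their probe sets. CUL1, the scaffold of the SCF ligases, gave 9372.8, 10869.9, 8259.7 and 14864.7 in vivo and 12473.8, 12452.8, 10605.8 and 9969.6 in vitro at probe set MmuSTS.4180.1.S1_at. The in vitro arrays all fell within the in vivo range, with a log2 fold change of 0.10 and a 95% interval from -0.29 to 0.48. CUL4B, a scaffold that works through DDB1, had 1969 ± 272 in vivo and 2171 ± 236 in vitro (SD, n = 4). CUL9, a large cullin known to bind p53, had 1907 ± 401 and 2230 ± 143 at its tested probe set, and CUL3, which takes BTB-domain receptors, had 1282 ± 322 and 1024 ± 199. None of these passed, and the 95% interval for CUL3 ran from -0.76 to 0.14.

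CUL5, the scaffold that pairs with SOCS-box receptors, had the largest cullin difference. Its probe set MmugDNA.25803.1.S1_at gave 398.4, 480.2, 294.5 and 463.0 in vivo and 758.0, 633.4, 672.7 and 804.3 in vitro. The groups did not overlap, and the log2 fold change was 0.82 ± 0.20 (SE), which did not pass (limma adjusted p = 0.185). A brighter CUL5 probe set had 2699.1, 2454.5, 2380.7 and 3246.5 in vivo and 3359.4, 3261.6, 3652.5 and 3374.1 in vitro, again without overlap but with a log2 fold change of 0.35 (limma adjusted p = 0.462). The remaining CUL5 probe set had 0.07, so all 3 were positive and they differed in size. Across the alternatives the first of them had adjusted p-values from 0.0951 to 0.465.

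The other cullins and SKP2 did not pass. SKP2, the receptor for the cell cycle inhibitor p27, had log2 fold changes of 0.12, 0.12 and 0.08 at its 3 probe sets. CUL2, which serves the VHL receptor, had 55.2 ± 9.06 in vivo and 48.3 ± 13.6 in vitro (SD, n = 4). The better measured CUL4A probe set had 551 ± 116 and 545 ± 128, and CUL7 had 111 ± 46.6 and 98.7 ± 22.7. Their 95% intervals reached from -0.83 to 0.45 for CUL2 and from -0.80 to 0.67 for CUL7, so changes of moderate size in either direction were not detectable here.

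FBXW receptors were led by FBXW7, which binds phosphorylated cyclin E, MYC and Notch. Probe set MmugDNA.8344.1.S1_at gave 555.1, 563.4, 458.7 and 523.1 in vivo and 904.1, 673.6, 649.4 and 801.5 in vitro. Here too the in vitro arrays all lay higher, with a log2 fold change of 0.51 ± 0.19 (SE; limma adjusted p = 0.358). A brighter FBXW7 probe set had 1919 ± 351 in vivo and 2573 ± 200 in vitro (SD, n = 4), a difference of 0.44 (limma adjusted p = 0.396), and the dimmest had 0.15. In the opposite direction FBXW9 had 115 ± 21.2 and 86.7 ± 8.92 without overlap, a log2 fold change of -0.36 (limma adjusted p = 0.637). FBXW11, a beta-TrCP receptor for phosphorylated targets, had -0.44 at 1 probe set and 0.11 at the other, and the brightest FBXW2 probe set had -0.09.

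**Figure D3:**
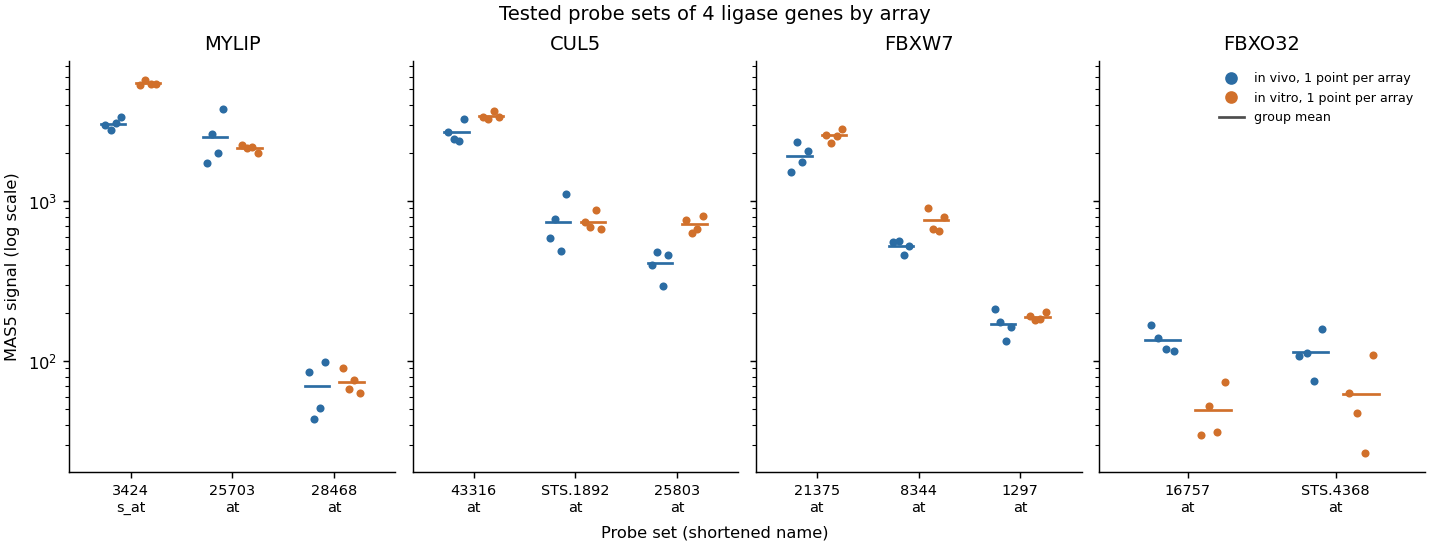
MAS5 signal (log scale) of the tested probe sets of MYLIP, CUL5, FBXW7 and FBXO32, with a point per array, in vivo in blue and in vitro in orange, and a bar at each group mean. MYLIP is separated at 1 of 3 probe sets, CUL5 at 2 of 3 and FBXW7 at 1 of 3, while both FBXO32 probe sets have lower in vitro means.

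Among FBXL receptors, which hold leucine-rich repeats, no gene passed. FBXL20 had 2394 ± 133 in vivo and 2626 ± 40.9 in vitro (SD, n = 4). Its groups did not overlap although the log2 fold change was only 0.13 (limma adjusted p = 0.794), and its dimmer probe set had 0.07. FBXL18 gave 55.4, 56.0, 52.7 and 106.3 in vivo and 110.5, 86.8, 116.9 and 126.7 in vitro. In vivo replicate 4 fell among the in vitro arrays, and the difference was 0.69 ± 0.28 (SE; limma adjusted p = 0.405). FBXL15 had -0.64 with a 95% interval from -1.57 to 0.28, FBXL21, a receptor for cryptochromes, had 0.36, and FBXL6 had 0.13.

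Of 31 tested FBXO probe sets, 4 were lower and none higher in vitro at an unadjusted p under 0.05, beside 5.61% lower and 4.66% higher of all tested probe sets. FBXO32, also called atrogin-1 and known from muscle wasting, gave 168.5, 140.2, 118.3 and 116.0 in vivo and 34.5, 52.4, 36.3 and 74.5 in vitro at probe set MmugDNA.16757.1.S1_at. All 4 in vitro arrays lay under the lowest in vivo array, and the log2 fold change was -1.36 ± 0.28 (SE; limma adjusted p = 0.0818). The call was made in 1 of 18 alternatives, with array weights (limma adjusted p = 0.0373). A second FBXO32 probe set had 107.7, 111.7, 75.5 and 159.7 in vivo and 63.6, 47.6, 26.6 and 109.6 in vitro, with overlap and a log2 fold change of -0.89 (limma adjusted p = 0.402). The other 3 FBXO32 probe sets were too dim to test.

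FBXO5 and FBXO43 encode EMI1 and EMI2, inhibitors of the anaphase-promoting complex, and EMI2 is the protein that holds the egg at metaphase II. FBXO43 gave 699.4, 819.4, 738.3 and 959.3 in vivo and 817.2, 911.8, 900.7 and 890.7 in vitro. The groups overlapped, with a log2 fold change of 0.14 and a 95% interval from -0.23 to 0.51 (limma adjusted p = 0.826). The bright FBXO5 probe set had 3085 ± 758 in vivo and 2855 ± 399 in vitro (SD, n = 4), a log2 fold change of -0.09. A dimmer FBXO5 probe set gave 80.2, 280.1, 448.8 and 198.3 in vivo and 93.8, 52.0, 152.1 and 72.5 in vitro. That probe set had -1.23 ± 0.43 (SE) with overlapping groups and did not pass (limma adjusted p = 0.339).

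The remaining named FBXO genes did not pass either. FBXO34 had 6432 ± 1008 in vivo and 5908 ± 1029 in vitro, and FBXO30 had 3332 ± 570 and 3880 ± 386 (SD, n = 4). FBXO28 had -0.66 at 1 probe set (limma adjusted p = 0.422) and 0.27 and -0.24 at the other tested ones. FBXO25 had -0.49, FBXO42 had -0.64 at its dimmer probe set and 0.002 at the brighter one, and FBXO38 ran from -0.63 to 0.06 over 4 tested probe sets. All 3 FBXO21 probe sets were negative, at -0.55, -0.28 and -0.58, and none passed.

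TRIM was the family with the most genes, 44, and had 60 tested probe sets, of which 29 had positive and 31 negative values. TRIM28, the corepressor that guards imprints and silences retroelements, gave 963.2, 755.1, 722.3 and 555.4 in vivo and 1023.8, 979.8, 875.5 and 692.4 in vitro. The groups overlapped widely, and the log2 fold change was 0.26 with a 95% interval from -0.18 to 0.71 (limma adjusted p = 0.701). TRIM60 had 4774 ± 831 and 4536 ± 394, TRIM63, a muscle ligase also called MuRF1, had 4195 ± 698 and 4863 ± 631, and TRIM37, which acts on centrosome assembly, had 2228 ± 213 and 2234 ± 125 (SD, n = 4). The TRIM37 interval, -0.32 to 0.33, was among the narrower ones.

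The TRIM probe sets of smallest p were lower in vitro and did not pass. TRIM68 gave 109.7, 194.8, 135.3 and 134.2 in vivo and 56.4, 62.6, 91.1 and 85.4 in vitro. The groups did not overlap, and the log2 fold change was -0.88 ± 0.26 (SE; limma adjusted p = 0.260). TRIM42 gave 170.0, 171.8, 181.7 and 179.9 in vivo and 116.0, 113.8, 117.0 and 127.6 in vitro, a tight separation with a log2 fold change of -0.54 ± 0.20 (SE; limma adjusted p = 0.383). TRIM41 had -0.46 with overlapping groups. TRIM50 had -0.85 and -0.74 at its tested probe sets, also with overlapping groups, and both were tested through the in vivo mean alone. In the other direction a dim TRIM7 probe set had 2.6 to 31.5 in vivo, with 2 of 4 arrays above background, and 32.5 to 42.0 in vitro. It was tested through its in vitro mean alone and did not pass (limma adjusted p = 0.526), while its brighter probe sets had -0.19 and -0.28. The 3 tested TRIM25 probe sets, for a ligase of antiviral signalling, were positive at 0.33, 0.42 and 0.38 without passing.

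TRIM13, an ER-anchored ligase, depended on 1 array. Probe set MmugDNA.32320.1.S1_at gave 299.3, 330.3, 1358.0 and 328.1 in vivo and 205.7, 223.6, 237.9 and 206.5 in vitro. In vivo replicate 3 was 4.11 times the next array, while the groups did not overlap even apart from it. The log2 fold change was -1.05 (limma adjusted p = 0.359) and -0.53 without that array (limma adjusted p = 0.448). Its other probe sets gave 183.3 and 311.7 on that array, inside the range of the others for the first and below it for the second, with log2 fold changes of -0.14 and 0.18.

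Among the deubiquitinases, USP1, which acts on the DNA repair proteins FANCD2 and PCNA, and USP2 were far above background on all arrays. USP1 gave 6367.6, 7099.4, 5929.3 and 10645.0 in vivo and 7469.3, 7905.2, 7615.5 and 6867.6 in vitro. The in vitro arrays lay inside the in vivo range, and the log2 fold change was 0.03 with a 95% interval from -0.36 to 0.41. USP2 gave 3808.0, 8853.6, 5421.1 and 9000.4 in vivo and 5056.1, 6186.8, 6927.9 and 4524.3 in vitro. Its in vivo pools ranged widely, and its log2 fold change was -0.19 (95% interval -0.72 to 0.35), with 0.15 and -0.03 at its other probe sets.

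USP24 was higher in vitro on average at all 3 probe sets, none of which passed. The brightest had 473 ± 46.1 in vivo and 600 ± 78.5 in vitro (SD, n = 4) without overlap, a difference of 0.33 (limma adjusted p = 0.566), and the next had 0.22. The dimmest gave 10.6, 14.5, 5.9 and 32.7 in vivo and 56.9, 39.2, 33.2 and 33.1 in vitro, with 1 of the 4 in vivo arrays above background. It was tested through its in vitro mean alone, so its fitted value of 1.11 (limma adjusted p = 0.407) is given as a description, and its size is uncertain. USP48 had 2466 ± 481 and 3273 ± 281, or 0.42 (limma adjusted p = 0.413), at its brightest probe set, and 0.08, -0.14 and -0.17 at the others.

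USP members that act on chromatin or splicing did not pass, and neither did USP54, USP45 and USP32. USP16, a histone H2A deubiquitinase, had log2 fold changes of 0.33 and 0.32 at its tested probe sets, with limma adjusted p-values of 0.595 and 0.641. USP22, the deubiquitinase of the SAGA complex, had 0.13 and 0.27. USP39, a splicing factor of the USP family, had 1522 ± 173 in vivo and 1735 ± 140 in vitro (SD, n = 4), and USP54 had 479 ± 77.8 and 614 ± 121. USP45 had -0.66, with 244.9 on in vivo replicate 3 and between 58.4 and 105.0 on the other arrays. The 3 tested USP32 probe sets were all negative, at -0.49, -0.57 and -0.36, and did not pass.

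USP14, a deubiquitinase that binds the proteasome and trims ubiquitin from its substrates, had the lowest log2 fold changes of all members, and at 4 of its 5 probe sets the difference rested on a single pool. Its 5 probe sets gave 2645.4, 2412.6, 1318.2, 599.1 and 435.4 on in vivo replicate 2, each the highest of the 8 arrays. These signals were 96.9, 47.6, 51.9, 69.7 and 7.47 times the next array. On the other 7 arrays the first probe set, MmugDNA.2571.1.S1_at, gave 25.3, 20.1 and 7.3 in vivo and 8.1, 14.0, 27.3 and 11.6 in vitro, at or near background. The first 3 probe sets share a name stem, so the 5 are not independent readings of the transcript.

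The log2 fold changes of USP14 ran from -2.20 to -1.58 and none passed (limma adjusted p from 0.246 to 0.646). Without in vivo replicate 2 the first probe set had 17.6 ± 9.26 in vivo (n = 3) and 15.3 ± 8.39 in vitro (n = 4; SD), a log2 fold change of -0.13. The next 3 had -0.48, -0.41 and -0.21 without that array. Probe set MmugDNA.5184.1.S1_s_at gave 58.3, 435.4, 40.6 and 34.2 in vivo and 18.4, 6.6, 3.9 and 20.2 in vitro. It was the single USP14 probe set whose groups did not overlap, and no in vitro array was above background. Its fitted difference without in vivo replicate 2 was -1.43 (limma adjusted p = 0.395), with 44.4 ± 12.5 in vivo (SD, n = 3). It was tested through its in vivo mean alone, so its size is given as a description. With in vitro signals under background raised to it, the difference was 2.95-fold lower in vitro, or 1.72-fold without in vivo replicate 2. That floor allows for background alone and not for the spread between pools. The fitted 95% interval on all arrays ran from -3.56 to -0.85 on the log2 scale.

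**Figure D4:**
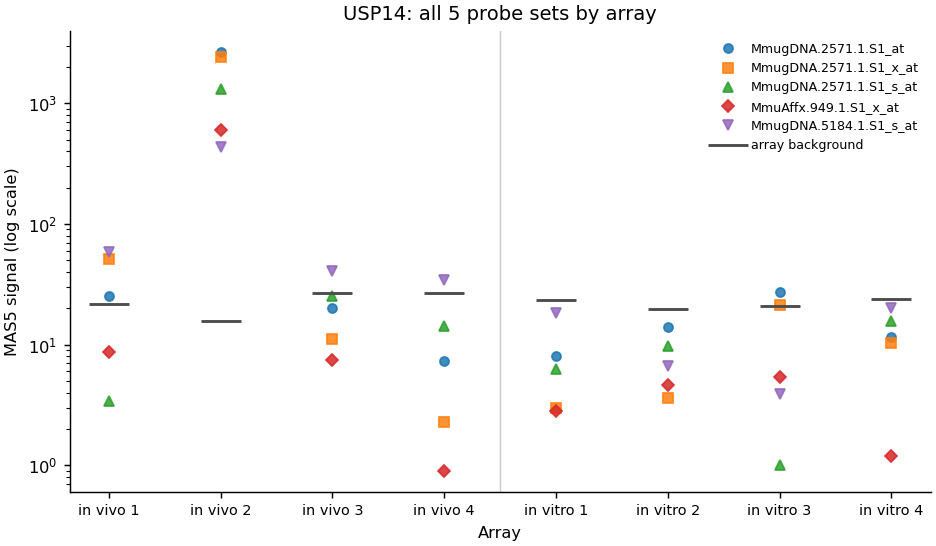
MAS5 signal (log scale) of the 5 USP14 probe sets on each of the 8 arrays, with the background of each array as a dash. All 5 lie between 435.4 and 2645.4 on in vivo replicate 2, and none exceeds 58.3 on any other array.

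Such a jump was rare on this array. Of all 26378 tested probe sets, 10 were more than 7-fold brighter on in vivo replicate 2 than on any other array. Of these, 5 were USP14, 3 were BAX, a gene of the apoptosis pathway, 1 was SPZ1 and 1 had no symbol. The probe set without a symbol, RPTR-Mmu-AJ132968-1_at, gave 2510.8 on that array against at most 321.3 elsewhere. Its name starts with RPTR, and it was not among the controls left out. The brightest BAX probe set gave 5594.8 there against at most 189.7 elsewhere. The other arrays held between 0 and 3 such probe sets each, none of them a ligase or deubiquitinase. In vivo replicate 2 also had the highest ratio of the 3' to the 5' actin control probe sets, 150 against 51.1 to 108 on the others. The other controls set it apart less. Its GAPDH ratio was 49.4, beside 47.3 on in vitro replicate 2, and its EF1a ratio was 7.7, under the 12.8 of in vivo replicate 4. The part of RNA quality in the USP14 signal was not tested.

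The OTU family, a class of cysteine deubiquitinases, had no member past the test and none without overlap. OTUB1, which also restrains ubiquitin-conjugating enzymes, gave 345.3, 322.3, 687.7 and 214.8 in vivo and 314.2, 321.1, 319.2 and 226.0 in vitro. The groups overlapped, with log2 fold changes of -0.29 and -0.09 at its 2 tested probe sets. OTUD7B had 1175 ± 248 and 1543 ± 271 (SD, n = 4; log2 fold change 0.39, limma adjusted p = 0.525), OTUD4 had 0.13 at its brightest probe set, and OTUB2, tested through its in vivo mean alone, had -0.72 with a 95% interval from -1.63 to 0.19. OTUD5 gave 356.7, 407.7, 1429.6 and 264.0 in vivo and 259.7, 223.6, 273.6 and 302.4 in vitro at 1 probe set. In vivo replicate 3 was 3.51 times the next array, and the log2 fold change of -0.86 became -0.35 without it, while the other 3 OTUD5 probe sets lay between -0.22 and 0.09.

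UCHL genes had 1 probe set without overlap. UCHL5, like USP14 a partner of the proteasome, gave 1014.8, 951.2, 1107.3 and 973.4 in vivo and 775.1, 947.0, 744.0 and 790.9 in vitro. In vitro replicate 2 fell just under the lowest in vivo array, and the log2 fold change was -0.31 (limma adjusted p = 0.556), while the dimmer UCHL5 probe sets had 0.15 and 0.20. UCHL1, abundant in neurons and germ cells, had 2579 ± 887 in vivo and 2285 ± 255 in vitro (SD, n = 4) at its bright probe set, and UCHL3 had 795 ± 116 and 665 ± 108. The UCHL1 interval ran from -0.59 to 0.35 and that of UCHL3 from -0.66 to 0.15.

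Probe sets of a gene often disagreed in sign. Of 61 member genes with at least 2 tested probe sets, 33 (54.1%) had the same sign at all of them, against 48.7% of 3744 genes on the array. CUL5, FBXW7, USP24 and SKP2 were positive and USP32, FBXO21 and FBXO32 negative at every tested probe set, whereas MYLIP, FBXO38, USP48 and OTUD5 were mixed. Over 2-fold differences were found at 9 member probe sets (4.02%, against 3.22% of all tested). These were the 5 of USP14, 2 of the FBXO family (FBXO32 and FBXO5), TRIM13 and USP24, and the USP14 and USP24 probe sets were above the filter in 1 group alone.

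The in vivo pools varied more than the in vitro pools. The SD of the log2 signal was larger in vivo at 160 of 224 member probe sets (71.4%), with medians of 0.41 in vivo and 0.27 in vitro. The same held for 66.4% of all tested probe sets, with medians of 0.44 and 0.32. USP1, USP2, CUL1 and the second MYLIP probe set were examples, each with an in vitro range inside the in vivo range.

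Genes that complete the cullin ligases, outside the rule, were described from a list of their activating enzymes, adaptors and regulators. Of 30 such genes on the array 29 were tested and none passed in either direction, with a median log2 fold change of -0.15 over probe sets. At an unadjusted p under 0.05, 1 of 56 probe sets was higher and 6 lower in vitro, beside 4.66% and 5.61% of all tested probe sets. COPS3 and GPS1 encode subunits of the COP9 signalosome, which removes NEDD8 from cullins. The 4 COPS3 probe sets had -0.46 at the brightest, and -0.86, -0.08 and -0.34 at the others, of which the one at -0.86 did not overlap (limma adjusted p = 0.194). GPS1 had -0.68 without overlap (limma adjusted p = 0.355). SPOP, a CUL3 receptor, had 0.39 at its brightest probe set (limma adjusted p = 0.486) and 0.15 and -0.66 at the others. A list of other deubiquitinases and related genes, 12 of them on the array, had none past the test in either direction. Its median over tested probe sets was -0.17, with 16 of 19 negative, beside 13057 of 26378 over all tested. Its lowest value was -1.24 at 1 probe set of TNFAIP3, which edits ubiquitin chains in NF-kappa-B signalling (limma adjusted p = 0.194), while the other 3 tested TNFAIP3 probe sets had 0.16, -0.22 and -0.85. ATXN3 had -1.12 (limma adjusted p = 0.249).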

How the data were processed

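RNA of pools of 4 oocytes was amplified and hybridised to single-colour Affymetrix arrays, per the labels' protocols. Intensity values were deposited on a linear scale and are named MAS5 signals in the submitters' processing notes, without a version; all arrays share the same trimmed mean. MAS5 treats every probe set separately, and dim ones are noisy.

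The 99 control probe sets, those with names starting with AFFX, were left out, while the RPTR probe set described above stayed in. Values were taken as log2(signal + 8.2), the 25th percentile of non-control signals, which understates dim transcripts' fold changes. The 26378 probe sets whose mean signal exceeded the 50th percentile were compared in R 4.3.3 with limma 3.58.1 (lmFit, eBayes with an intensity trend, 6 residual degrees of freedom before moderation), with Benjamini-Hochberg adjustment over all of them at 0.05. A p that misses this threshold does not show that the groups were alike. Symbols come from the platform annotation. Entrez identifiers of 303 of 304 member probe sets matched RefSeq's gene table (assembly T2T-MMU8v2.0) and 0 symbols changed. No sequences or coordinates are given.

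The members, families and gene lists were chosen with earlier results of these data known. Named are probe sets past the test, those of smallest unadjusted p per family (up to 6 for FBXO, TRIM and USP, up to 3 for the others), genes of the 2 brightest probe sets per family, and genes fixed for their role. Other genes, such as FBXO21, TRIM25, TRIM37, USP22, USP32 and USP39, were chosen after their values were seen. The fit was tested on simulated data. There it recovered 8 of 50 true 2-fold changes (16%) and 39 of 50 true 4-fold changes (78%), so most 2-fold changes were missed. Alternatives were other pseudocounts (1 and 27.7), filters, normalizations and variance models, array weights, a replicate block, and each array left out in turn. No sign of pairing by replicate number was seen: the correlation of deviations between same-numbered arrays ran from -0.0448 to 0.011. Whether same-numbered pools shared animals is not known, as the labels name none.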

Additional observations from a re-analysis of the deposited data

Results flagged for a closer look

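In a group of 4 arrays, a value was singled out where its gap to the nearest other array exceeded Dixon's 95% critical share of the range, which chance alone does in about 1 of 20 groups. It was met in 11 of 120 groups of named probe sets (9.17%).

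Most were high or low on a single in vivo array. USP14 reached 2645.4 and 435.4 on in vivo replicate 2 at 2 probe sets. TRIM13 at 1358.0, OTUD5 at 1429.6 and USP45 at 244.9 stood out on in vivo replicate 3. FBXL18 at 106.3 was high and CUL7 at 41.4 low on in vivo replicate 4. In vitro, OTUB1 was low on replicate 4 at 226.0, and MYLIP was high on replicate 2 at 5739.8, next to 5386.5 on the nearest array. The untested FBXL5 probe set gave 20.1 on in vivo replicate 1 and 16.6 on in vitro replicate 4, both below background.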

How the results depend on the processing

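The number of member probe sets past the adjusted threshold, 1 in the comparison reported, became 0 with no filter, median centring, no intensity trend or the replicate block, 2 with array weights, and between 0 and 1 with single arrays left out. The MYLIP difference was 0.84 with no filter, with no trend and in the paired fit with the replicate block, and 0.78 with median centring; limma adjusted p was 0.0697, 0.266, 0.112 and 0.178. With single arrays left out it ran from 0.80 to 0.88. No replicate number was its own best match, and the block changed no other member call. The 17 probe sets with an unadjusted p under 0.05 became 11 with the 75th-percentile filter, where fewer were tested (141), and between 12 and 27 with arrays left out, 27 being without in vivo replicate 4, where all tested probe sets rose to 13.5%. The 15 without overlap became 11 with that filter and 12 with median centring (7.80% and 5.36% of members tested), and 20 to 27 with arrays left out, as 3 arrays overlap 4 less often by construction; the highest came without in vivo replicates 1 and 4, beside 11.1% and 11.9% of all tested. The median difference of members was 0.054 after quantile normalization, -0.045 after median centring, which put the median of all tested at -0.049, and -0.031 to 0.032 with arrays left out. Of 58 named probe sets, 46 kept their sign in every alternative and 12 did not; none that passed reversed. A filter on the mean log2 value was chosen after seeing the data and left MYLIP as the 1 call. Dim signals near background limit FBXL5, OTUD6B, USP14 and USP24. Where no cause is given, it was not tested.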

Other observations

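TRIML2, a TRIM-like gene known from placenta, gave 91.9, 156.6, 578.3 and 133.8 in vivo and 139.4, 135.5, 166.5 and 154.3 in vitro. In vivo replicate 3 was 3.47 times the next array, as it was at the TRIM13 and OTUD5 probe sets described above. Of all tested probe sets, 55 were more than 3-fold brighter on that array than on any other, against 35 on in vivo replicate 1, 11 on in vivo replicate 2 and 0 to 5 on the remaining arrays.

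Of 3 UBE2R2 probe sets, for a ubiquitin-conjugating enzyme of cullin ligases, 1 gave 1059.6, 1484.5, 2167.0 and 1330.4 in vivo and 846.6, 894.7, 816.8 and 826.3 in vitro. Every in vitro array lay lower, with a log2 fold change of -0.78 ± 0.21 (SE; limma adjusted p = 0.217). The brightest UBE2R2 probe set had 0.13 and the remaining one -0.18. UBA6, an activating enzyme for ubiquitin, gave 176.4, 242.6, 236.9 and 141.8 in vivo and 67.5, 123.4, 91.0 and 117.6 in vitro at 1 probe set, a log2 fold change of -0.94 ± 0.26 (SE; limma adjusted p = 0.233). The brightest UBA6 probe set had 0.50, and the others had 0.16 and -0.27.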
